A study of Rattus norvegicus with 10 samples.

Results

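Red blood cells are built from precursors that pass through a fixed sequence of steps, and 8 genes of that sequence other than the globins were followed here in fetal rat hearts. GATA1 and KLF1 are the transcription factors that switch on the red cell program. The erythropoietin receptor (Epor) carries the survival signal, and the transferrin receptor (Tfrc) takes up the iron. ALAS2 starts heme synthesis, AHSP keeps free alpha globin chains from precipitating, and SLC4A1 (band 3) and EPB42 (protein 4.2) form the anchor of the red cell membrane. In a late fetus these precursors mature mainly in the liver and, increasingly, in spleen and marrow, and reach the heart with the blood.

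The 8 genes (Klf1, Gata1, Epor, Tfrc, Alas2, Ahsp, Slc4a1 and Epb42) were taken by symbol from a table of 18025 genes, and all 8 were present and passed the filter that left 14542 genes for testing. Their NCBI Gene identifiers in the table are, in that order, 304666, 25172, 24336, 64678, 25748, 293522, 24779 and 362202. The libraries came from hearts of wild-type (wt) Sprague-Dawley rat fetuses at embryonic day 19.5. In 5 of them (CON, replicates 1 to 5) the dam, from rats 3 months old, had received citric acid buffer alone on 3 successive days, and in the other 5 (HG, replicates 1 to 5) it had received streptozotocin in that buffer, which destroys the insulin-producing cells of the pancreas and leaves the mother hyperglycemic. The sires were normoglycemic in both groups. The study's introduction places the injections before pregnancy, and its methods place them after mating. The labels give neither the dam of a fetus nor its sex, so the p-values below measure the spread between these libraries, which may in part be that between littermates or technical. The study's methods mention pooling of RNA before library construction, but within each group no library repeats the values of another. One legend of the study names isolated cardiomyocytes where the labels say heart tissue. Tnnt2, cardiac troponin T, averaged 3953 FPKM in CON and 3246 in HG, so heart muscle was present in the libraries of both groups.

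Promoter sequence was taken from RefSeq (assembly GRCr8, from 250 bases before to 50 after the annotated start) to show the letters through which GATA1 is known to act. Entries were found for 6 of the 8 genes, and Slc4a1 and Ahsp had none in the table used. A GATA word (GATA with A or T before it and A or G after it, on either strand) occurred in 4 of the 6, against 30.3% of all 33469 promoters. The 4 stretches follow, each on the strand of its gene, with the GATA word or its reverse complement in capitals.
Klf1, chr19:40158652-40158717, minus strand: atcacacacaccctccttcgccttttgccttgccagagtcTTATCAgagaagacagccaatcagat
Epor, chr8:28770391-28770476, minus strand: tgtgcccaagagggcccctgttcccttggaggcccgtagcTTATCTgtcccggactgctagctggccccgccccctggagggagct
Alas2, chrX:22895274-22895359, plus strand: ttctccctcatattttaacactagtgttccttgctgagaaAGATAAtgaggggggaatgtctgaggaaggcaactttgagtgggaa
Epb42, chr3:128451720-128451805, minus strand: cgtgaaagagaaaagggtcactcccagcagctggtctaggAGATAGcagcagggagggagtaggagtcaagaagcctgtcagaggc
The first base of the capitals lay 26 bases before the start in Klf1, 114 in Epor, 136 in Alas2 and 82 in Epb42. The word CCNCNCCC, a form of the CACCC box that KLF1 reads, was found on either strand in Gata1, Epor and Tfrc, against 46.3% of all promoters, and its letters do not overlap the GATA words. Both words together occurred in Epor alone among the 6, against 9.77% of all promoters. These matches are descriptions of letters and not of binding.

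Slc4a1, Ahsp and Epb42 were lower in HG than in CON, and Tfrc was higher. Alas2, Gata1 and Klf1 had lower means in HG and Epor a higher one, without passing the test. That made 4 of 8 genes called at an adjusted p under 0.05, against 40.1% of all genes tested. By direction, 3 of 8 were called lower against 11.8% of all genes, and 1 was called higher against 28.4%. None of the 8 passed the additional fold threshold of 2, which 1.94% of genes passed. In none of them were the 5 CON and 5 HG values fully apart, which they were in 27.4% of genes. The median log2 fold change of the 8 genes was -0.41, and that of all genes tested was 0.09. Fold changes are on the scale of log2(FPKM + 0.1), which understates the change of the scarcest of these genes.

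**Figure D1:**
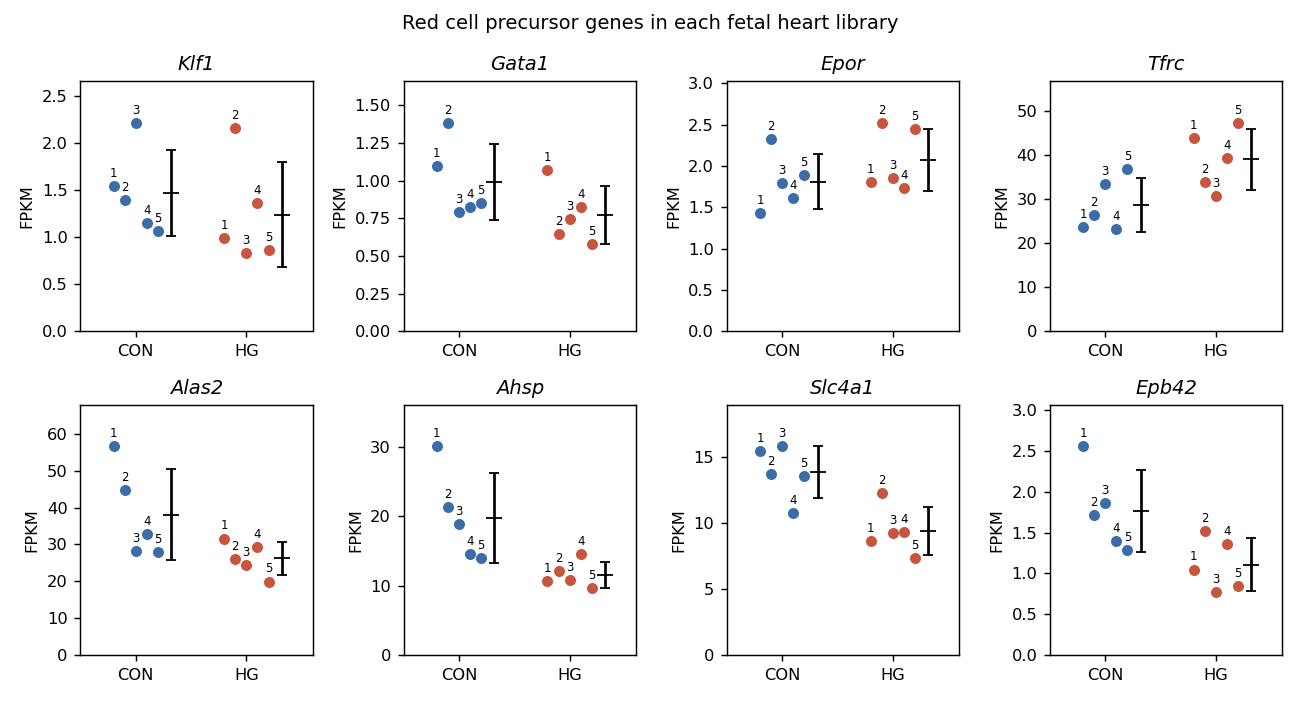
FPKM (vertical axis, linear and starting at 0) of each of the 8 genes in every library, with CON in blue, HG in red, the replicate number at each point, and the group mean with its SD as a black bar. Ahsp, Slc4a1 and Epb42 sit lower in most HG libraries and Tfrc sits higher, but the groups overlap in each panel.

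The scarcest of the 8 were the transcription factors. Gata1 stood at 1.10, 1.38, 0.792, 0.827 and 0.851 FPKM in CON libraries 1 to 5, and at 1.07, 0.643, 0.744, 0.822 and 0.580 in HG libraries 1 to 5. CON 1, CON 2 and HG 1 were the high libraries, and the other 7 lay below them. Gata1 differed by a log2 fold change of -0.32 (SE 0.181), with a 95% interval of -0.72 to 0.07 and an adjusted p of 0.181. Klf1 stood at 1.55, 1.39, 2.22, 1.15 and 1.07 FPKM in CON and at 0.989, 2.16, 0.827, 1.37 and 0.860 in HG. One library of each group, CON 3 and HG 2, was far above the rest of its group. The log2 fold change of Klf1 was -0.27 (SE 0.252), with an interval of -0.82 to 0.27 and an adjusted p of 0.417. These genes rested on 18 to 47 reads (Gata1) and 22 to 61 reads (Klf1) a library. For Gata1 the coefficient of variation was 25.4% in CON and 24.6% in HG, where counting alone gives 17.8% and 20.3%. For Klf1 it was 31.0% in CON and 45.0% in HG, against 16.2% and 18.4% from counting.

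The receptors did not follow the downward set. Tfrc, which brings in iron-loaded transferrin, stood at 23.6, 26.3, 33.4, 23.2 and 36.8 FPKM in CON and at 44.0, 34.0, 30.7, 39.5 and 47.4 in HG. HG 1, HG 4 and HG 5 lay above every CON library, while HG 2 and HG 3 lay below CON 5. Mean Tfrc was 28.7 ± 6.11 FPKM for CON and 39.1 ± 6.88 for HG (SD, n = 5 each). The log2 fold change was 0.45 (SE 0.145, adjusted p = 0.0255 by limma). The call was lost without any one of CON 1 (adjusted p = 0.0631), CON 2 (0.0511), CON 4 (0.0618), HG 1 (0.0604) and HG 5 (0.0635), and with libraries scaled by median-of-ratios (0.0715) or quantiles (0.0543), while the log2 fold change stayed between 0.36 and 0.55.

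Tfrc is made by every dividing cell and not by red cell precursors alone. All 7 genes of a list of dividing cells were called higher in HG, their summed level being 397 to 439 FPKM in CON and 519 to 578 in HG. With median-of-ratios scaling 5 of the 7 passed. The part of dividing cells in the difference of Tfrc was not tested.

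Epor, the receptor for erythropoietin, stood at 1.44, 2.32, 1.79, 1.62 and 1.89 FPKM in CON and at 1.80, 2.52, 1.86, 1.73 and 2.44 in HG. The groups overlapped over most of their range. Its log2 fold change was 0.18 (SE 0.143), with an interval of -0.13 to 0.49 and an adjusted p of 0.333, on 46 to 82 reads a library.

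Alas2, the red cell form of the enzyme that begins heme synthesis, was the most abundant of the 8 in CON. It stood at 56.6, 44.7, 28.3, 32.8 and 27.9 FPKM in CON libraries 1 to 5, and at 31.6, 26.1, 24.5, 29.3 and 19.9 in HG libraries 1 to 5. CON 1 and CON 2 lay far above the rest, and the other 3 CON libraries lay within or just above the range of HG. The log2 fold change was -0.49 (SE 0.187, adjusted p = 0.0531 by limma), just outside the threshold. It passed in 8 of 22 alternative analyses, among them voom on the recovered reads (0.0346), median-of-ratios (0.0355) and quantile scaling (0.0419), and the analyses without CON 3 (0.0324), CON 5 (0.0291) or HG 1 (0.0448).

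Ahsp, the chaperone of free alpha globin, had the largest fitted difference of the 8. Its values were 30.1, 21.3, 18.9, 14.6 and 14.0 FPKM in CON and 10.7, 12.1, 10.9, 14.6 and 9.62 in HG. HG 4 alone reached the range of CON, where it lay beside CON 4 and CON 5. The mean fell from 19.8 ± 6.51 to 11.6 ± 1.91 FPKM (SD, n = 5 each), and the log2 fold change was -0.73 (SE 0.183, adjusted p = 0.00758). It was called in every alternative analysis, at adjusted p-values from 0.00389 to 0.0209. CON 1 was the highest library, and without it the log2 fold change was -0.56.

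The 2 membrane genes were both called lower. Slc4a1, the chloride and bicarbonate exchanger that anchors the skeleton to the membrane, stood at 15.5, 13.7, 15.8, 10.8 and 13.6 FPKM in CON and at 8.66, 12.3, 9.25, 9.34 and 7.38 in HG. HG 2 was the only HG library inside the range of CON, above CON 4. Its log2 fold change was -0.56 (SE 0.129, adjusted p = 0.00425), and it was called in every alternative analysis, at 0.000870 to 0.0124. Epb42, which ties band 3 to ankyrin, stood at 2.56, 1.72, 1.87, 1.40 and 1.29 FPKM in CON and at 1.05, 1.52, 0.769, 1.36 and 0.847 in HG. HG 2 and HG 4 lay within the range of CON, and the other 3 HG libraries lay below it. Its log2 fold change was -0.63 (SE 0.207, adjusted p = 0.0285) on 34 to 118 reads a library. The call of Epb42 was lost without any one of CON 1 (0.0685), CON 3 (0.0593), HG 1 (0.0526), HG 3 (0.0709) and HG 5 (0.0670), the log2 fold change staying between -0.75 and -0.39 in all analyses.

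For single genes, two-sided exact permutation tests of 5 libraries against 5, for which 0.00794 is the smallest p possible, gave unadjusted p = 0.0159 for Ahsp and for Slc4a1, 0.0397 for Epb42, 0.0476 for Tfrc and 0.0635 for Alas2. For Gata1, Epor and Klf1 the exact permutation p was 0.127, 0.246 and 0.373. In whole-tissue RNA, fewer red cell precursors and less of these messages per precursor cannot be told apart.

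FPKM is divided by gene length, so the levels of the genes can be set in order. In CON the order was Alas2, Tfrc, Ahsp and Slc4a1, at means of 38.0, 28.7, 19.8 and 13.9 FPKM, followed by Epor, Epb42, Klf1 and Gata1 at 1.81, 1.77, 1.48 and 0.990. Of the neighbours in that order, only Slc4a1 and Epor did not overlap. In HG Tfrc came first at 39.1 FPKM, ahead of Alas2 at 26.3, whose range overlapped with it. Ahsp at 11.6 and Slc4a1 at 9.38 followed, apart from Alas2 above and from Epor (2.07) below, and Klf1 (1.24), Epb42 (1.11) and Gata1 (0.772) overlapped each with the next.

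The globins, the cargo of the red cell, gave a scale for these changes. All 6 adult alpha and beta globin genes were called lower in HG, namely Hba-a1 (log2 fold change -0.52), Hba-a2 (-0.62), Hbb (-0.67), Hbb-b1 (-0.69), Hbb-bs (-0.72) and Hba-a3 (-1.54). Hba-a1 and Hba-a2 differed by 0.00 and -0.16 under quantile scaling and were then not called. That scaling gives genes of equal rank equal values in all libraries. A gene that keeps its rank, as Hba-a1 did, then differs by 0.00 whatever its FPKM, so quantile scaling cannot test the most abundant globins. The near-identical sequences of these genes leave their split into single genes uncertain. Hbq1b, a theta-like globin, differed by -0.47 (adjusted p = 0.117). The embryonic globins went the other way, with Hbe1 at 2.24 and Hbz at 4.07 on the log2 scale, whereas Hbg1 differed by 0.43 (adjusted p = 0.231). Hbe2 was listed at 0 in all CON libraries and at 0.236 to 0.638 FPKM in HG. It rested on 14 reads over the HG libraries, at most 5 in any of them, and passed the filter through HG alone. Summed, the adult globins stood at 10475 to 19834 FPKM in CON and 8128 to 11382 in HG, and the embryonic globins at 49.6 to 85.2 in CON and 189 to 494 in HG.

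**Figure D2:**
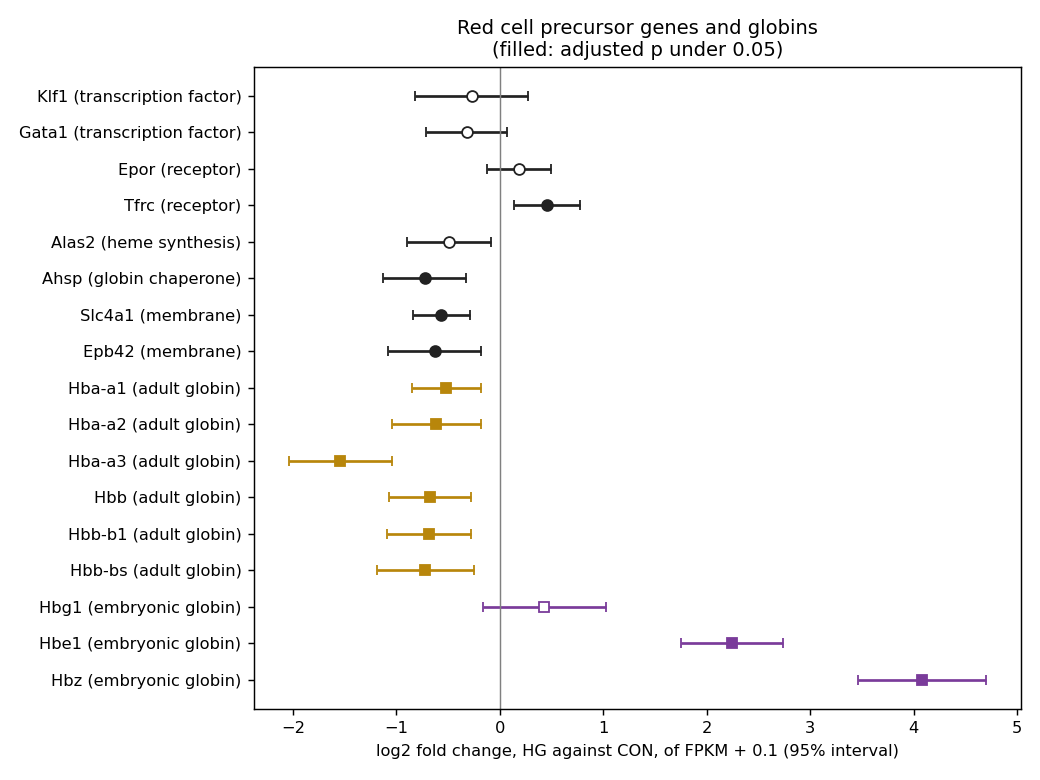
Log2 fold change of HG against CON (horizontal axis, of FPKM + 0.1) with its unadjusted 95% interval for the 8 genes (black circles), adult globins (ochre squares) and embryonic globins (purple squares), filled where the adjusted p was under 0.05. Ahsp, Slc4a1 and Epb42, at -0.73 to -0.56, lie among the adult globins, while Tfrc at 0.45 lies on the side of the embryonic ones.

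Set against the adult globins of the same library, the differences of 4 genes were close to 0. Per 1000 FPKM of adult globin, Slc4a1 stood at 0.974 ± 0.339 in CON and 0.945 ± 0.0800 in HG, a log2 difference of 0.02. The log2 difference of these ratios was 0.09 for Alas2, -0.05 for Epb42 and -0.14 for Ahsp, with exact permutation p-values from 0.444 to 0.952. Epor stood at 0.0724 to 0.171 in CON and at 0.172 to 0.30 in HG, so that its groups did not overlap, though the highest CON library and the lowest HG library were almost level. Its log2 difference was 0.77, with the smallest exact permutation p possible, 0.00794, or 0.0635 after adjustment over the 8 genes. On the log2 scale the FPKM of Epor itself differed by 0.18, and the adult globin sum by -0.59. The ratios of Klf1 and Gata1, whose FPKM had lower means in HG, had higher means there, with log2 differences of 0.31 and 0.26 (exact permutation p = 0.389 and 0.175, adjusted 0.593 and 0.466). The ratio of Tfrc was 1.04 higher on the log2 scale (exact permutation p = 0.0476, adjusted 0.190). The ratio was chosen after the data were seen, and all 8 share its denominator.

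**Figure D3:**
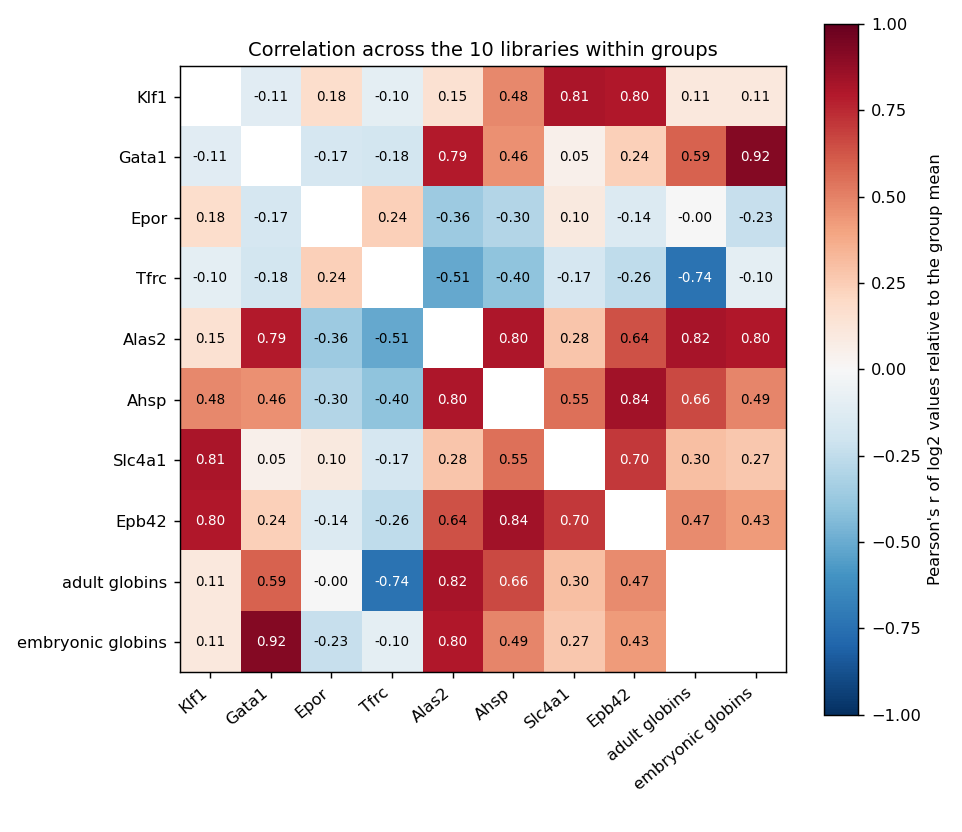
Pearson's r of log2(FPKM + 0.1) across the 10 libraries after each group's mean was subtracted, for the 8 genes and the summed adult and embryonic globins (rows and columns), with blue for negative and red for positive values. Klf1 with Slc4a1 and Epb42, Slc4a1 with Epb42, Ahsp with Epb42 and Alas2, and Gata1 with Alas2 and the embryonic globins stand out in red. Alas2 with both globin sums does so too, and the row of Tfrc is mostly blue.

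Whether the 8 genes varied together was examined over the 10 libraries after subtraction of each group's mean, so that the difference between groups did not enter. Of 28 pairs, 17 correlated positively and 11 negatively, with a median r of 0.16. At an unadjusted p under 0.05 there were 6 pairs, all positive, and 0 passed after adjustment over the 28. The strongest was Ahsp with Epb42 (r = 0.838, rho = 0.750, exact permutation p = 0.00319 and 0.0336, adjusted 0.0749 and 0.157), and r was 0.712 without the 2 libraries farthest out. Klf1 correlated with both membrane genes. With Slc4a1, r was 0.815 and rho 0.800 (exact permutation p = 0.00965 and 0.0192, adjusted 0.0749 and 0.157), which fell to r = 0.542 without CON 3 and HG 2. With Epb42, r was 0.804 and rho 0.950 (exact permutation p = 0.0105 and 0.00125, adjusted 0.0749 and 0.0350), and r was 0.937 without those libraries. Slc4a1 and Epb42 correlated with each other at r = 0.705 and rho = 0.750 (exact permutation p = 0.0356 and 0.0336, adjusted 0.166 and 0.157). That r fell to 0.544 without CON 4 and HG 2.

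Among the other 7, Gata1 had its highest r with Alas2. It was 0.791 (rho = 0.750, exact permutation p = 0.0107 and 0.0336, adjusted 0.0749 and 0.157), and 0.865 without CON 2 and HG 1. The r of Gata1 with Klf1 was -0.11 and with Slc4a1 0.05. Without CON 3 and HG 2, however, the r of Gata1 with Klf1 was 0.541. On the same removal that of Klf1 with Alas2 went from 0.150 to 0.771. Alas2 in turn correlated with Ahsp (r = 0.805, rho = 0.650, exact permutation p = 0.0201 and 0.0761, adjusted 0.112 and 0.266), which fell to 0.535 without CON 1 and CON 5. Tfrc was negative with 6 of the other 7, from -0.51 with Alas2 to -0.10 with Klf1, and its only positive r was 0.24, with Epor. When the groups were pooled with their difference left in, 7 of the 28 pairs passed, 6 of them among Alas2, Ahsp, Slc4a1, Epb42 and Klf1 and the other being Gata1 with Alas2. Of those, Alas2 with Ahsp fell from r = 0.877 to 0.542 without CON 1 and CON 2.

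Among 16 pairs of these genes with a globin sum, 2 passed after adjustment. Gata1 correlated with the summed embryonic globins (r = 0.918, rho = 0.900, exact permutation p = 0.00160 and 0.00431, adjusted 0.0256 and 0.0689). The same r was 0.932 within CON and 0.934 within HG, and it was 0.865 without CON 2 and HG 1. Alas2 did likewise (r = 0.804, rho = 0.750, exact permutation p = 0.00375 and 0.0336, adjusted 0.030 and 0.179), with r = 0.897 without those libraries. With 1 library left out, r of Gata1 stayed between 0.889 and 0.939, and its adjusted p was 0.050 without CON 5, 0.0583 without HG 1, 0.0667 without HG 4 and 0.117 without HG 5. For Alas2, r stayed between 0.757 and 0.890, and the adjusted p passed the threshold only without CON 1, CON 2 or HG 2. The embryonic globin sum did not overlap between the groups, so no r was computed across them.

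**Figure D4:**
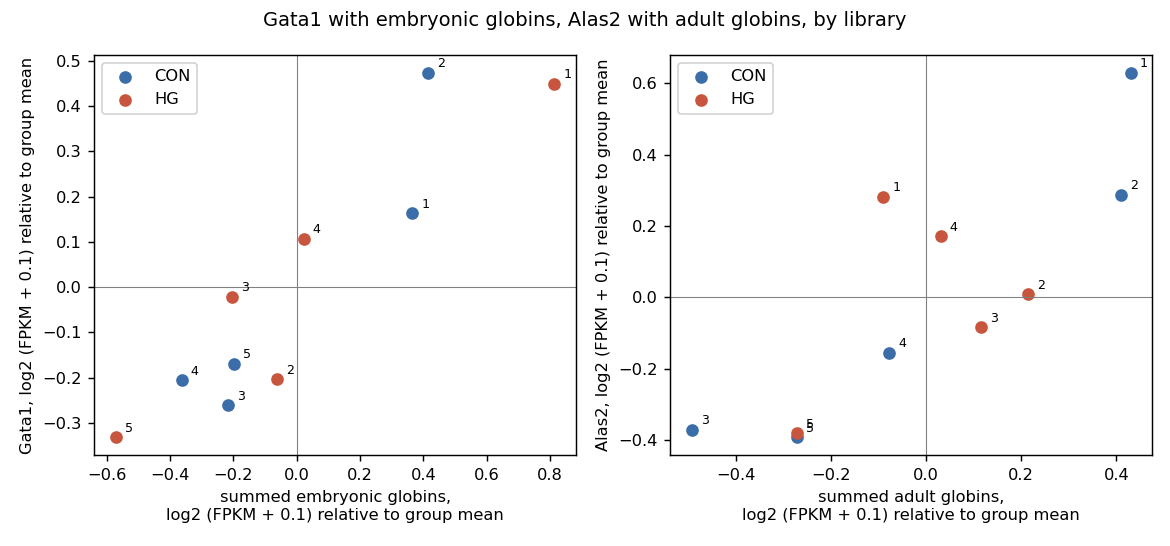
Left, Gata1 against the summed embryonic globins, and right, Alas2 against the summed adult globins, as log2(FPKM + 0.1) relative to the group mean on both axes, with CON in blue, HG in red and the replicate number at each point. CON 1, CON 2 and HG 1 are high on both axes in the left panel (r = 0.918), and CON 1 and CON 2 lead the right panel (r = 0.824).

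With the adult globins, Alas2 had r = 0.824 and rho = 0.500 (exact permutation p = 0.0212 and 0.192, adjusted 0.113 and 0.498), and r was 0.721 without CON 1 and CON 3. The r of Alas2 was 0.942 within CON but 0.394 within HG. Tfrc was again opposite (r = -0.736, rho = -0.750, exact permutation p = 0.0385 and 0.0336, adjusted 0.154 and 0.179), at -0.67 without the same libraries. It was -0.71 within CON and -0.90 within HG. FPKM are shares of a library. Hba-a1, the most abundant adult globin, held 38683 to 101777 reads a library, where 16672876 to 19109844 lay on all genes. The part of such shares in the r of Tfrc was not tested.

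The genes most like each of the 8 were ranked by the same within-group r over 10 libraries, among the 11708 genes that averaged 1 FPKM or more. For Gata1, below that level itself and ranked against 11709, the first was Hbe1 (r = 0.918), before Ptges2 and Med22. The embryonic globin Hbz, looked up after the values were seen, was in place 9 (r = 0.860). Hbe1 and Hbz are part of the summed embryonic globins, so these places largely restate the r of Gata1 with that sum. Hbe1 averaged 47.6 of its 65.5 FPKM in CON and 234 of 296 in HG. Alas2 was most like Ybx3 (0.942), Gpn1 and Wdr89, with Hba-a1, likewise looked up, in place 11. Ahsp was most like Ppp1r14b (0.980), Ankrd49 and Gabarap, Slc4a1 most like Gpr182 (0.962), Rgmb and Serf2, and Epb42 most like Gpx1 (0.965), Baalc and Got2. Klf1 was most like Fzd9 (0.952), LOC108352650 and RGD1564664. Epor was most like Peak1 (0.929), Pcdhga7 and Pfdn2, and Tfrc most like Dpy19l3 (0.957), Ascc2 and Heatr6.

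A wider list of 74 erythroid genes was compared in the same analysis, of which 72 were listed and 71 tested. In it 25 genes were called lower and 8 higher in HG. The share called, 46.5%, was near the 40.1% of all genes tested, of which 11.8% were lower and 28.4% higher. The median log2 fold change of the list was -0.09, against 0.09 over all genes. With median-of-ratios scaling the split was 33 lower and 2 higher, and with quantile scaling 30 and 4.

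**Figure D5:**
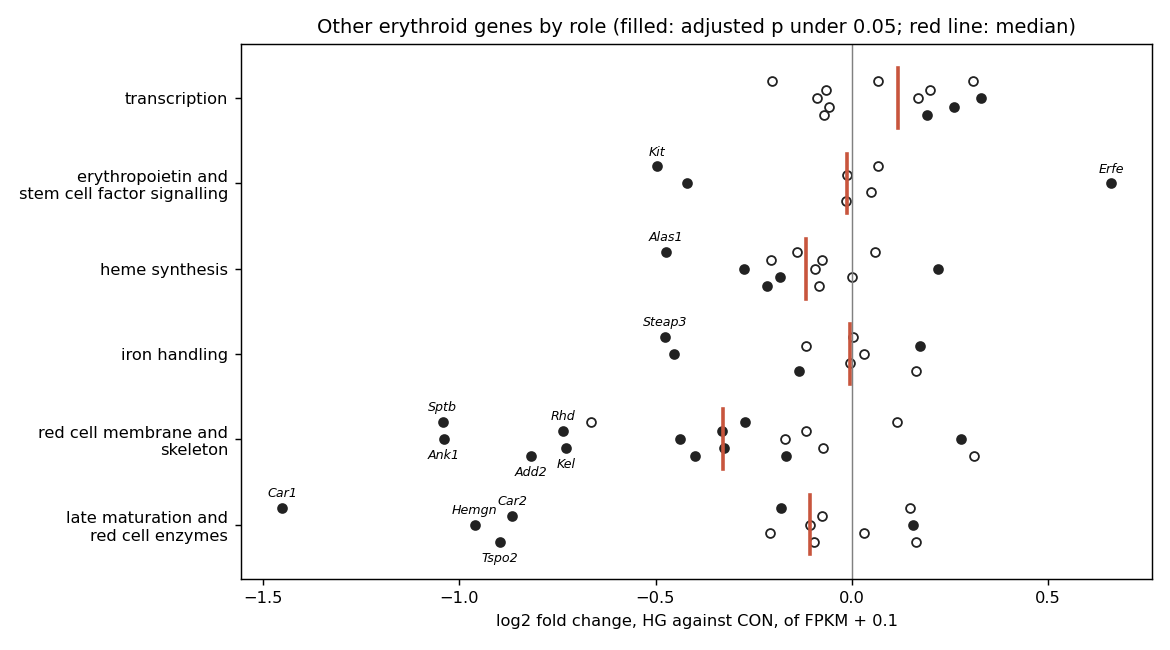
Log2 fold change of HG against CON (horizontal axis, of FPKM + 0.1) of the 71 other erythroid genes by role (vertical axis), each point a gene, filled where the adjusted p was under 0.05, with the median of each role as a red line. The membrane and skeleton genes lie farthest to the left, with a median of -0.33, and the transcription factors lie around 0.12.

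The membrane and skeleton genes, the partners of Slc4a1 and Epb42, held the most calls, with 11 of 18 lower and 1 higher and a median of -0.33. Sptb, beta spectrin, fell by 1.04 on the log2 scale (8.68 to 4.15 FPKM), as did Ank1, the ankyrin that holds band 3 (15.3 to 7.39 FPKM). Slc2a1, a glucose transporter, was the gene called higher (0.28), but not with median-of-ratios scaling (0.19, adjusted p = 0.209). Spectrin and ankyrin are also made by striated muscle. In the same libraries 6 of 7 cardiomyocyte genes were called lower and 1 higher, with sums of 10623 to 11295 FPKM in CON and 9480 to 11107 in HG, and their part in these calls was not tested.

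Of the late maturation genes, 5 of 13 were lower and 1 higher. Car1, red cell carbonic anhydrase, fell by 1.45 on the log2 scale, and Hemgn (hemogen) fell by 0.96. Xpo7, an exporter that acts in nuclear condensation, was the gene called higher (0.16), and with median-of-ratios scaling it was 0.07 (adjusted p = 0.181). Alas1, the form of ALAS2 made in all tissues, fell by 0.47, and Slc25a38, which brings glycine into mitochondria for heme, fell by 0.28. In all, 4 of 12 heme synthesis genes were lower and 1 higher, which was Ppox (0.22, or 0.13 with median-of-ratios and adjusted p = 0.143).

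Around the receptors the calls were mixed. In erythropoietin and stem cell factor signalling, 2 of 7 genes were lower, Kit (-0.50) and Cish (-0.42), and 1 was higher, Erfe (0.66), which encodes erythroferrone, the signal from red cell precursors that lowers hepcidin. In iron handling 3 of 9 were lower. These were Steap3 (-0.48), the reductase of transferrin-borne iron, Hmox1 (-0.45), which degrades heme, and Aco1 (-0.13, or -0.22 with median-of-ratios). The one called higher was Ireb2 (0.17), an iron-sensing protein, with 0.08 and an adjusted p of 0.153 under median-of-ratios. Of 12 transcription factors, 0 were lower and 3 higher by limma, which is a share of 25.0% higher, no more than the 28.4% of all genes. Tal1 (0.33) and Ldb1 (0.26), partners of GATA1 in one complex, were the larger of these, and with median-of-ratios only Ldb1 was still called.

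Genes of other cells were read in the same libraries. Gata1 is also made by megakaryocytes and mast cells. Of 9 megakaryocyte and platelet genes, 0 were called by limma, with a sum of 15.1 to 22.1 FPKM in CON and 12.3 to 21.3 in HG, mostly Pf4. The 4 mast cell genes listed summed to 0.296 to 1.39 FPKM in CON and 0.0606 to 0.541 in HG, and Hdc was called lower (-1.42). Their part in the values of Gata1 was not tested.

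Liver genes stood out in CON 3. Their sum was 85.8 FPKM there, against 3.15 to 8.51 in the other CON libraries and 1.33 to 2.60 in HG, and 5 of 8 were called lower in HG, among them Alb (-2.83), Afp (-3.26), Ahsg (-2.36), Apoa1 (-1.81) and Ttr (-1.67). The fetal liver makes red cells, and CON 3 had the highest Klf1 and Slc4a1 of the CON libraries. It also had the lowest Gata1 (0.792 FPKM) and the lowest adult globin sum (10475 FPKM) of CON. The part of liver tissue in these values was not tested. Without CON 3, the log2 fold change was -0.51 for Slc4a1 (adjusted p = 0.0124), -0.73 for Ahsp (0.0161), -0.60 for Epb42 (0.0593) and -0.12 for Klf1 (0.729). The calls of Slc4a1 and Ahsp were thus there without this library, and that of Epb42 was not.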

How the data were processed

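Total RNA of 10 fetal hearts (5 CON, 5 HG) was sequenced, and the authors deposited FPKM, read numbers divided by gene length and library size. The submitters' processing notes name fastp, HISAT2, HTSeq, R 3.2.0 and mRatBN7.2. The reads behind the FPKM were recovered from the step between values (100% of 18025 genes whole within 0.01 reads), which gave 17639895 to 18240006 reads on genes for CON and 16672876 to 19109844 for HG. Counting errors derived from them cover counting alone.

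The filter kept genes averaging 0.1 FPKM or more. limma 3.58.1 in R 4.3.3 (trend, no covariate, Benjamini-Hochberg) was run on log2(FPKM + 0.1), a call being an adjusted p under 0.05. The unit being FPKM, a count model was not the main test, and voom on the recovered reads was an alternative. Correlations within groups were tested over all 14400 orders within groups, pooled ones over 100000 permutations, two-sided, in Python 3.11.15 with numpy 2.4.6, pandas 2.3.3 and scipy 1.17.1. Figures used matplotlib 3.10.9. The model was tested on simulated data.

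The members and lists were chosen with earlier results of these data known. All 8 members are named, and of other genes, for each role or marker list, those with the largest calls in each direction, the most abundant marker and the 3 genes most like each member. Others were chosen after their values were seen. Alternatives were other pseudocounts, filters and scalings, globins left out, no trend, array weights, a replicate block and each library left out. The ratio to adult globins was added later. Of promoters, 2 members have none printed for lack of an entry.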

Additional observations from a re-analysis of the deposited data

How the results depend on the processing

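The number of the 8 genes called was 2 to 5 over 21 alternatives, against 4. It was 2 without CON replicate 1 and 2 without HG replicate 5, and leaving out each library in turn gave 2 to 5. With median-of-ratios or quantile scaling it was 4, all lower. These scalings also moved the median log2 fold change of all genes, from 0.09 to 0.007 and 0.020. No gene of the 8 changed direction in any alternative, and Ahsp and Slc4a1 were called in all 22 of theirs. Klf1, Gata1 and Epor were called in none, with adjusted p-values of 0.0889 to 0.729, 0.0731 to 0.386 and 0.138 to 0.652. The count of other erythroid genes was 27 to 35 over all alternatives (27 to 32 with 1 library left out), against 33. Pairs of the 8 genes that passed numbered 7 when pooled, 1 by Spearman's rho and 0 to 1 with 1 library left out, against 0. Pairs with globins numbered 6 when pooled (of 8, adult globins only), 0 by Spearman's rho and 0 to 2 with 1 library left out, against 2. For pooled pairs the difference between groups enters, by construction. For the others the cause was not tested. Replicate numbers did not pair the libraries: the correlation of deviations between same-numbered CON and HG libraries was -0.126 to 0.108, and 0 of 5 CON libraries correlated best with their own number. With the replicate number as a block, 5 of the 8 genes were called, Alas2 being added (adjusted p = 0.00755), and 30 other erythroid genes. Gata1, Klf1, Epor and Epb42 rested on 18 to 118 reads a library, from which counting alone gives a coefficient of variation of 11.4% to 20.3%, and their observed one was 18.3% to 45.0%.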

Other observations

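Among the genes of other cells, those that clear red cells and hemoglobin were read as well. Cd163, the scavenger receptor by which macrophages take up hemoglobin bound to haptoglobin, was lower in HG (log2 fold change -1.77, adjusted p = 0.000865 by limma), at 0.720 FPKM on average in CON and 0.157 in HG. Adgre1, a general macrophage marker, was higher (1.00, adjusted p = 0.000661), at 0.535 and 1.18 FPKM. Of the 7 macrophage genes, 1 was called lower and 3 higher, where 11.8% and 28.4% of all genes tested were. With median-of-ratios scaling 2 were called higher. Their sum was 28.8 to 35.9 FPKM in CON and 33.1 to 43.7 in HG. Cd163 rested on 2 to 76 reads a library. S100a9, a neutrophil gene, was lower (-1.33), 1 of 4 tested neutrophil genes to be called. None of 4 endothelial genes was called by limma, nor were the 2 tested genes of lymphoid cells and all leukocytes. With median-of-ratios scaling the endothelial gene Pecam1 was called lower (-0.15, adjusted p = 0.0176 by limma). Of 4 fibroblast genes, 2 were lower and 1 higher. Myh6, the adult form of the heart's myosin motor, was lower (-1.03), at 432 and 211 FPKM.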
